A study of Mus musculus with 3 samples.

Results

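A set of 10 genes that encode AP-1 and ATF transcription factors was followed across 3 libraries of cytosolic RNA from mouse macrophages. They were taken by gene symbol from a list that was drawn up with earlier results of these data known. They are 10 of the 55536 genes in the deposited tables: Fos, Fosb and Fosl2 of the Fos family, Jun, Junb and Jund of the Jun family, Atf3, Batf, Batf2 and the small Maf gene Maff. The macrophages were grown from bone marrow of C57BL/6J mice. Every library came from cells that had 100 ng/ml Lipid A, the Toll-like receptor 4 ligand of bacterial endotoxin, for 12 h, then 12 h after washout, then 100 ng/ml Lipid A again for 10 min. Sex and age were not collected, per the labels. Replicates 1, 2 and 3 belong to this single condition and share 1 donor identifier, so it is unknown if they stem from separate animals, and p-values between libraries measure only the spread between these libraries. Cells without restimulation and nuclear RNA were not analysed here, and the values below are levels after restimulation, not responses to it.

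AP-1 is a family of dimers whose subunits hold each other through a leucine zipper and touch DNA through an adjacent basic region, the bZIP fold. Jun proteins pair with themselves or with Fos proteins, whereas Fos proteins need a Jun-type partner. AP-1 dimers prefer the element TGACTCA, and dimers with ATF or CREB proteins prefer the related cyclic AMP response element (CRE) TGACGTCA. In macrophages, Fos, Fosb, Jun, Junb, Atf3 and Maff are classed among the genes that Toll-like receptor signals switch on quickly through MAP kinases. ATF3 is known as a repressor of inflammatory genes, BATF and BATF2 replace Fos proteins as Jun partners and work with interferon regulatory factors, and small Maf proteins lack an activation domain.

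The sequences just before the start of 4 members are shown because the level order described next turns on these genes: Atf3 as the highest member, Junb as the highest Jun gene, and Jun and Fos as the founding AP-1 pair. Each line gives 250 bases that end directly before the RefSeq start on GRCm38.p6, 5′ to 3′ on the strand of the gene. Capitals mark TGACG or its reverse complement CGTCA (the CRE's leading 5 letters), the element TGACATCA, or the TATA box TATAAA.
Atf3: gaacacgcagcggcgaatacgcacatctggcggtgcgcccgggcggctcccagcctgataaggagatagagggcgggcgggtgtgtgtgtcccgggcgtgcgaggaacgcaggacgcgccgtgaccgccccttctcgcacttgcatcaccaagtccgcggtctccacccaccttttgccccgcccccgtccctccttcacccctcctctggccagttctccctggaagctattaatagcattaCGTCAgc
Junb: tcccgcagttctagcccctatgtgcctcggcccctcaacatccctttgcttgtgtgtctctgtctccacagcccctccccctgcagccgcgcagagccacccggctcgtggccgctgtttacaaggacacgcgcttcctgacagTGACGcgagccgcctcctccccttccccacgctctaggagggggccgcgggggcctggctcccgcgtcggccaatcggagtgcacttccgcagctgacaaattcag
Jun: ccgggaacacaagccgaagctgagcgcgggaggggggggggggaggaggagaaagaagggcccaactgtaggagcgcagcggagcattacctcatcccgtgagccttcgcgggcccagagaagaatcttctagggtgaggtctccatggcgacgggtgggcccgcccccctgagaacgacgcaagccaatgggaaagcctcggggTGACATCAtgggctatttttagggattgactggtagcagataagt
Fos: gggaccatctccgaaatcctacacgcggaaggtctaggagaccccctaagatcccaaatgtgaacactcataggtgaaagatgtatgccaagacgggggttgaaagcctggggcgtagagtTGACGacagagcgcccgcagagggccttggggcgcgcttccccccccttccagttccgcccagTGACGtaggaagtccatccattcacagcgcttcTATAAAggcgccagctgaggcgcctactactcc
These windows are chr1:191183334-191183583 (minus strand), chr8:84978749-84978998 (minus strand), chr4:95052223-95052472 (minus strand) and chr12:85473640-85473889 (plus strand). The last 7 bases of the Atf3 window lie inside the annotated first exon of its leading transcript, while the other windows overlap no annotated exon. TGACG or CGTCA stood 7 bases before the start of Atf3, 106 before that of Junb, and 129 and 66 before that of Fos, and Fos also had TATAAA at 33 bases. TGACATCA stood 45 bases before the start of Jun. Of the 10 members, 9 had an entry in the promoter table, Maff with 3 alternative windows. On either strand, TGACG was found in 6 of these 9 (Atf3, Batf, Fos, Fosb, Junb and Maff). Counted by window, that was 7 of 11, beside 17.8% of all 32851 windows of that length. The full CRE, which contains TGACG on both strands, occurred in 1 Maff window only (1.55% of all windows). TGACATCA occurred in 2 of the 11 windows, of Jun and Maff (2.93%), TATAAA on the gene's strand in 1, of Fos (7.59%), and TGACTCA in none (4.46%). These matches describe letters and say nothing of binding in these cells.

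The libraries had 31968675, 53094481 and 57070432 expected counts over genes in replicates 1, 2 and 3. All 9 macrophage markers, among them Lyz2 at 2989 ± 197 TPM (mean ± SD, n = 3), were above 10 TPM. TPM is a length-adjusted abundance that adds to a fixed total per library. The 6 lymphocyte markers summed to at most 0.1 TPM per library with Cd3e and Nkg7 at 0 counts, the 4 fibroblast markers to at most 0.1 TPM, and the 5 dendritic cell markers to between 0.91 and 1.37 TPM. The 6 neutrophil markers summed to between 7.48 and 11.67 TPM, mostly from S100a8 and S100a9. The other 4 had means below 1 TPM, and 2 of these, Ly6g and Retnlg, had 0 counts. Replicate 1 stood apart. Of 8 nuclear noncoding RNAs, Meg3 and Miat had 0 counts and 5 of the other 6 were highest in replicate 1, Malat1, Neat1 and Xist among them. Xist was at 32.61, 0.42 and 0.35 TPM in replicates 1, 2 and 3, and Malat1 at 1333, 118 and 152 TPM. A difference of sex or animal between the libraries was not tested. Without Rn7sk, which was at 49198, 36143 and 65978 TPM, the list summed to 1435 TPM in replicate 1 against 133 and 170 TPM in replicates 2 and 3. Nuclear-encoded protein-coding genes took 34.33% of TPM against 27.76% and 27.75%. In such bulk RNA, fewer cells of a type and less RNA per cell cannot be told apart.

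Atf3 was the most abundant member, exceeding Fos in TPM by 32.8, 14.3 and 10.2 times in replicates 1, 2 and 3. Of the 10 members, 7 reached 1 TPM in every library, beside 41.4% of 22015 nuclear-encoded protein-coding genes. Those 7 were Atf3, the 3 Jun genes, both Batf genes and Fos. Fosb, Fosl2 and Maff stayed below 1 TPM in each library. This cut depends on the scale: with TPM scaled to nuclear-encoded protein-coding genes alone, member levels were 3.25 to 3.57 times higher, Fosl2 averaged 2.37 and Maff 1.87, and 9 members passed the same cut beside 46.7% of those genes.

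Atf3 (chromosome 1, 191170296 to 191218039, minus strand, mm10) was at 127.91 TPM in replicate 1, 92.39 in replicate 2 and 74.81 in replicate 3. Its mean of 98.4 ± 27.1 TPM (SD, n = 3) ranked 471 among the protein-coding genes. No other member came near these values, since the lowest Atf3 library lay above the highest library of every other member. Atf3 alone held 41.95%, 40.92% and 32.5% of the TPM of the 10 members in replicates 1, 2 and 3.

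The Jun genes, which encode the obligate partners of Fos proteins, lay close together. Junb (chromosome 8, 84974484 to 84978718, minus strand), a weaker activator than Jun in many settings, was at 46.53, 32.25 and 41.61 TPM in replicates 1, 2 and 3. Jund (chromosome 8, 70698949 to 70700616, plus strand), usually the constitutive Jun gene, was at 26, 32.71 and 35.36 TPM. Jun (chromosome 4, 95049034 to 95052222, minus strand), the founding member, was at 33, 25.7 and 25.42 TPM. The order within the family changed from library to library: Jund was the lowest of the 3 in replicate 1 and the middle or highest in the others. On average Junb gave 40.1% of the family's TPM, Jund 31.8% and Jun 28.1%.

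Batf (chromosome 12, 85686669 to 85709087, plus strand), known for its part in T helper and dendritic cell programmes, reached 45.51, 24.72 and 33.67 TPM in replicates 1, 2 and 3. Batf2 (chromosome 19, 6140983 to 6172476, plus strand), an interferon-inducible relative, was at 20.88, 9.85 and 10.61 TPM. Batf exceeded Batf2 in each library, by 2.18, 2.51 and 3.17 times, and for both genes replicate 1 was the highest library.

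Fos family RNA was scarce. Fos (chromosome 12, 85473890 to 85477273, plus strand) was at 3.9, 6.47 and 7.35 TPM, on 336, 1033 and 1145 expected counts. Fosl2 (chromosome 5, 32135801 to 32157842, plus strand), which encodes FRA2, was at 0.61, 0.82 and 0.66 TPM. Both were lowest in replicate 1, and Fos made up 87.2% ± 1.9 (SD, n = 3) of the family's TPM. Fosb (chromosome 7, 19302696 to 19310051, minus strand) was at 0.02, 0.22 and 0.21 TPM, and these values rest on 3, 73 and 75 counts. Maff (chromosome 15, 79346621 to 79359076, plus strand), the small Maf gene, was at 0.55, 0.66 and 0.45 TPM on 43, 108 and 81 counts.

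**Figure D1:**
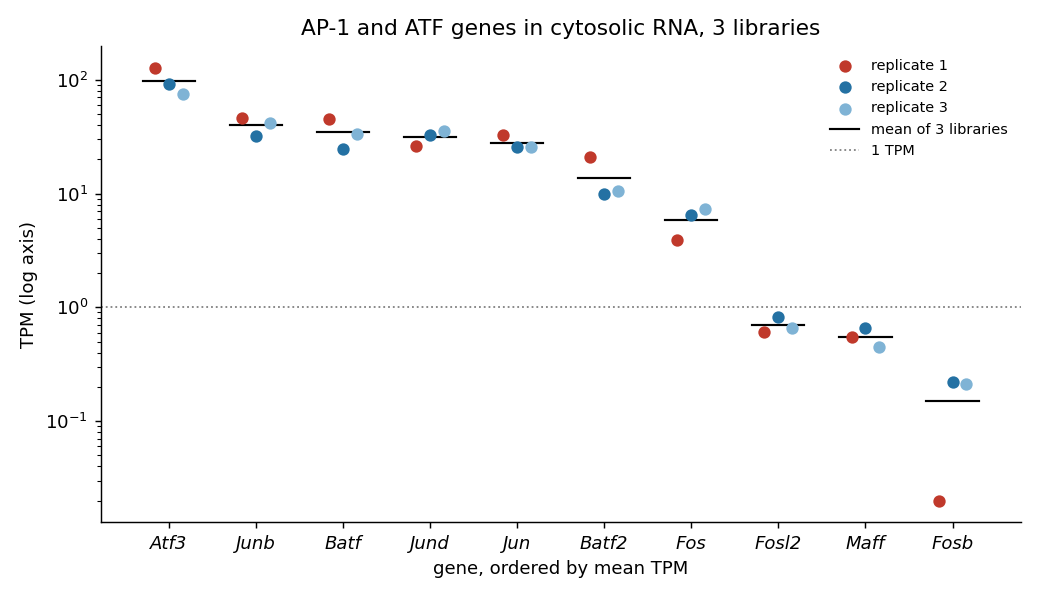
Each point is the TPM of a gene in a library (log axis), and each bar the mean of the 3 libraries. Atf3 sits highest, between 74.81 and 127.91 TPM, and Fosb lowest, with its replicate 1 point at 0.02 TPM.

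By mean TPM the order was Atf3 (98.4), Junb (40.1), Batf (34.6), Jund (31.4), Jun (28.0), Batf2 (13.8), Fos (5.91), Fosl2 (0.697), Maff (0.553) and Fosb (0.15). The 3 values lay wholly apart between Atf3 and Junb, Jun and Batf2, Batf2 and Fos, Fos and Fosl2, and Maff and Fosb. The ranges of Junb, Batf, Jund and Jun overlapped with those of their neighbours in this order, as did those of Fosl2 and Maff. Within libraries, Junb was above Batf and Fosl2 above Maff in 3 of 3, whereas Batf was above Jund in 1 of 3 and Jund above Jun in 2 of 3. The second transcript table, whose TPM have another scale, gave the same order except that Jund (38.5) stood level with Junb (38.4) after rescaling to the same protein-coding total.

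Jun family RNA exceeded Fos family RNA in each library. Jun, Junb and Jund together gave 105.53, 90.66 and 102.39 TPM in replicates 1, 2 and 3, and Fos, Fosb and Fosl2 together 4.53, 7.51 and 8.22 TPM. The ratio was 23.3, 12.1 and 12.5, a mean of 15.9 ± 6.37 (SD, n = 3). Replicates 2 and 3 were close and replicate 1 stood above them, with the lowest Fos sum. The Fos sum of replicate 1 was also lowest on other scales, at 16.3 CPM against 29.3 and 28.5. That of Jun was highest in replicate 1 on TPM only: it was 307, 304 and 345 CPM, and 307, 327 and 369 with TPM scaled to nuclear-encoded protein-coding genes alone. Without replicate 1 the mean ratio was 12.3. RNA ratios do not give protein or dimer ratios.

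Set beside the other bZIP genes listed here, the members spanned nearly the whole range. The list held 36 bZIP genes, the 10 members and 26 others. It is partial, without the Cebp genes for example, so the ranks hold within the list only. Of the 26 others, 22 reached 1 TPM in every library, beside 41.4% of nuclear-encoded protein-coding genes. The median mean TPM of the 26 was 15.0 against 20.9 for the members. Atf3 ranked 3 of 36, after Ddit3 (119 ± 26 TPM), which encodes the stress factor CHOP, and Atf4 (99.5 ± 17.5 TPM), the activator of the integrated stress response. Atf3 and Atf4 overlapped between libraries, as did Atf3 and Ddit3. Below them came Maf (83.4 ± 9.15 TPM), a macrophage identity factor, and Nfe2l1 (66.3 ± 4.55 TPM), a regulator of proteasome genes. Of the remaining AP-1 partners, Jdp2, a repressor that dimerises with Jun, was at 4.58 ± 1.18 TPM and Batf3, needed for a class of dendritic cells, at 1.98 ± 0.454 TPM. Fosl1, which encodes FRA1, had 0 counts in all libraries. In the shallowest library 3 counts would make 0.0973 TPM, an upper limit that covers counting error only. Nrl, a large Maf gene of photoreceptors, also had 0 counts. Maff at 0.553 TPM was below the other small Maf genes, Mafg (10.6 ± 1.21 TPM) and Mafk (7.22 ± 1.73 TPM), in every library.

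**Figure D2:**
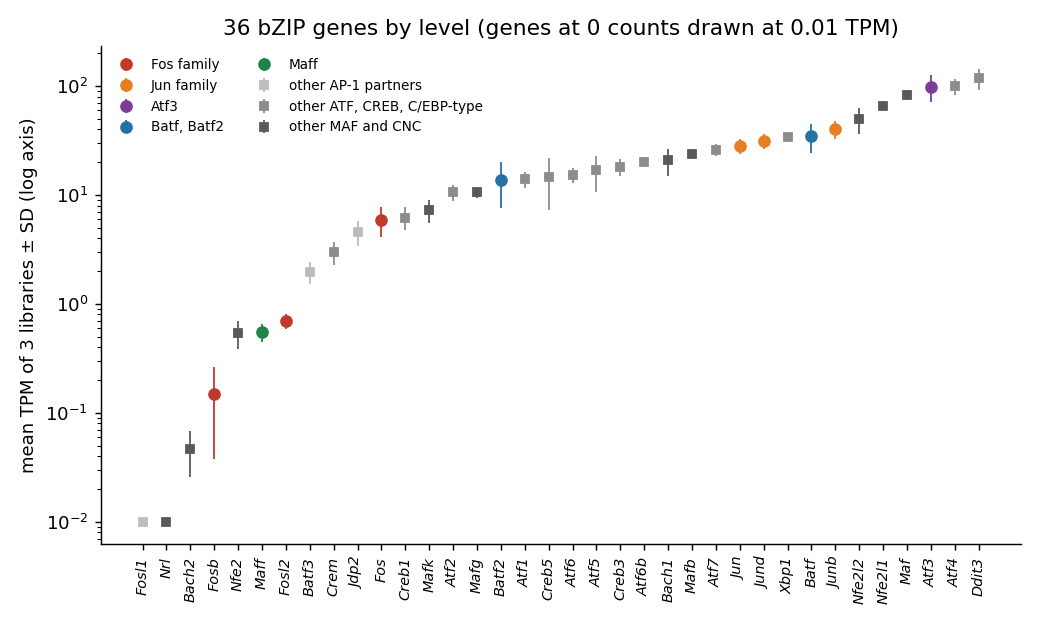
Mean TPM ± SD of the 36 listed bZIP genes over 3 libraries, on a log axis and in rising order, with circles for the members and squares for the others. Atf3 is the third from the top at 98.4 TPM, while Fosb, at 0.15 TPM, lies above only Bach2 and the 2 genes at 0 counts.

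Libraries of this single condition differed in most members by more than counting error. To compare libraries, counts were scaled to library size as CPM with TMM factors, and each gene was tested with a chi-square test against a single rate, adjusted by Benjamini-Hochberg over 12515 genes. Of the 10 members, 9 passed the filter on low counts, and Fosb failed it through its 3 counts in replicate 1. All 9 varied at an adjusted p under 0.05, beside 71.5% of all genes tested, so variation of this kind was common in these libraries. The median biological coefficient of variation of the 9 was 0.197 against 0.172 over all genes tested. Without replicate 1 it was 0.112 over the 10 members that then passed and 0.105 over all genes tested, so both were lower.

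Members did not move together between libraries. By log2 CPM, 4 of the 9 were highest in replicate 1 (Atf3, Batf, Batf2 and Jun), beside 39.8% of all genes tested, and 4 were lowest (Fos, Fosl2, Jund and Maff), beside 42.3%. Junb had its middle value there. Both counts were near the shares over all genes tested, so this split was not particular to the members. The median departure of replicate 1 from the mean of the other libraries was 0.07 on the log2 CPM scale over the 9 members and -0.01 over all genes tested. The directions thus nearly cancelled in both.

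Fos and Jund were lower in replicate 1 and Batf2 was higher. The adjusted p-values given here are of the chi-square test over all 3 libraries. They do not test replicate 1 against the mean of the others. Fos was at 3.43, 4.27 and 4.32 log2 CPM in replicates 1, 2 and 3, that is 1.81-fold lower in replicate 1 than in the mean of the others (adjusted p = 1.9e-23). Jund was at 5.78, 6.36 and 6.51 log2 CPM, 1.58-fold lower in replicate 1 (adjusted p = 2.1e-73). In both genes replicate 1 was the low library, and replicates 2 and 3 were nearer each other. Batf2 was at 5.03, 4.22 and 4.34 log2 CPM, 1.68-fold higher in replicate 1 (adjusted p = 4.9e-42). Its relative Batf was at 5.58, 4.98 and 5.44 log2 CPM, so its low library was replicate 2. Atf3 was at 8.37, 8.15 and 7.88 log2 CPM, with replicate 3 the low library and 1.4-fold between the extremes (adjusted p = 3.2e-146). Each pair of its libraries differed beyond counting error.

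Jun was at 7.17, 7.05 and 7.08 log2 CPM, a 1.08-fold span (adjusted p = 0.00018). Junb was at 6.75, 6.48 and 6.88 log2 CPM, with replicate 2 low. Fosl2 was at 2.46, 3.14 and 2.86 log2 CPM. These spans were smaller than those of Fos and Batf2. Maff, with the fewest counts of the 9, had the weakest evidence (adjusted p = 0.032). Fosb had 3 counts in replicate 1 against 148 in the others together, a ratio of rates of 0.0723 with an exact 95% interval of 0.0147 to 0.215 that covers counting error only.

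Replicate 1 carried much of this spread. Between replicates 2 and 3 alone, 6 of the 10 members, all of which then passed the filter, differed beyond counting error, beside 40.4% of 12697 genes. Fos (adjusted p = 0.62), Fosb (0.86), Jun (0.49) and Batf2 (0.15) did not, whereas Atf3, Junb, Batf, Jund, Fosl2 and Maff did. Maff lost its call without replicate 2 (adjusted p = 0.92) or without replicate 3 (0.058). Jun lost its call when no filter on low counts was used (adjusted p = 0.67), a setting in which the median departure of replicate 1 over the genes that pass the filter was -0.11, and the departure of Junb in replicate 1 turned from 0.07 to -0.02 on the log2 scale. The signs of the other members that passed the filter were the same under each scaling tried. The part of the nuclear RNA excess of replicate 1 in these differences was not tested.

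**Figure D3:**
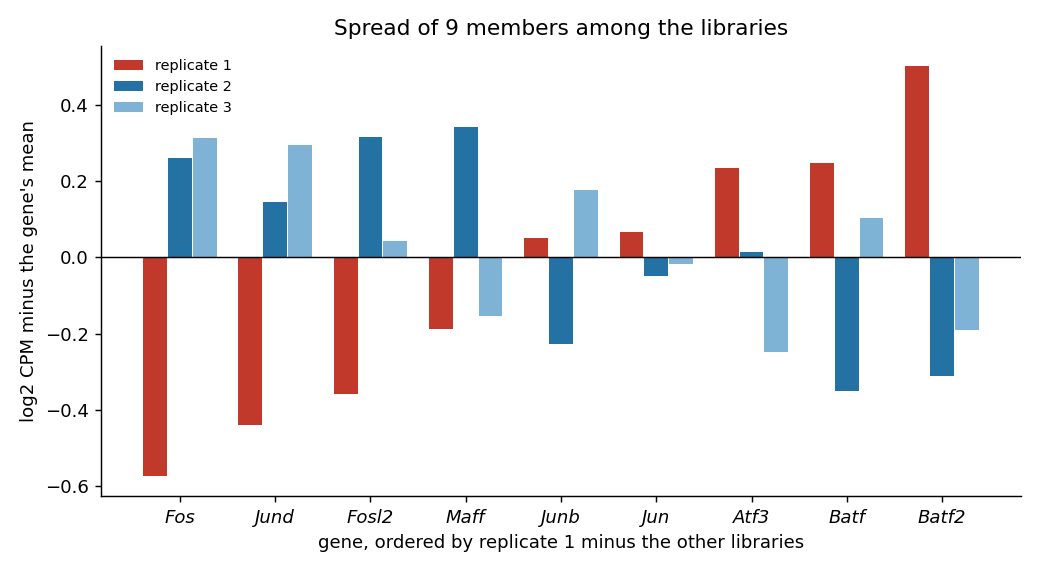
Log2 CPM of each library minus the gene's mean over the libraries, for the 9 members that passed the filter, ordered by replicate 1 against the others. The replicate 1 bars run from below 0 in Fos, Jund, Fosl2 and Maff to above 0 in Atf3, Batf and Batf2.

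The leading transcripts of the Jun genes have no intron, and those of the other members are spliced. Jun-201 and Jund-201 are the sole annotated transcripts of their genes, and Junb-201 took 100% of Junb TPM in each library, all with 1 exon. Atf3-201, with 4 exons, took 100% of Atf3 TPM in each library, and the longer-reaching Atf3-203, which starts upstream at 191218039, took 0%. Batf-201, with 3 exons, took 99.6% ± 0.539 (SD, n = 3). Batf2-201 took 79.7% ± 1.37 of Batf2 TPM, Fosl2-201 94.1% ± 1.17 and Fos-201 87.6% ± 12.4. Maff-201 took 60.28% in replicate 1 and 100% in the others, on 43 counts in replicate 1. The leading Fosb transcript, Fosb-201, took 0% in replicate 1, where the gene had 3 counts, and 66.98% and 68.87% in the others.

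Transcripts annotated as other than protein coding made up a sizeable share of Batf2 and a varying share of Fos and Fosb. In Batf2 they gave 17.85%, 15.74% and 18.1% of TPM in replicates 1, 2 and 3, of which processed transcripts took 10.2% ± 0.716 and a retained-intron transcript 7.06% ± 2.0 (SD, n = 3). In Fos they gave 0%, 12.39% and 24.76%, on 0, 33.06 and 72.98 expected counts. Processed transcript Fos-202 took 10.06% in replicate 2 and all of the 24.76% in replicate 3. The second transcript table gave Fos 32.8%, 37.2% and 40.9%, so for Fos the tables did not give the same share in any library. In Fosb a retained-intron transcript took 32.78%, 2.99% and 6.37%, on only 1, 2.11 and 4.62 counts. Fosl2 retained-intron transcripts took 5.91% ± 1.18 of its TPM in the first table and 17.8% ± 11.6 in the second. Batf2 gave 22.3% ± 2.54 in the second table, and Atf3, Junb and Batf stayed below 6% in every library of both tables.

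**Figure D4:**
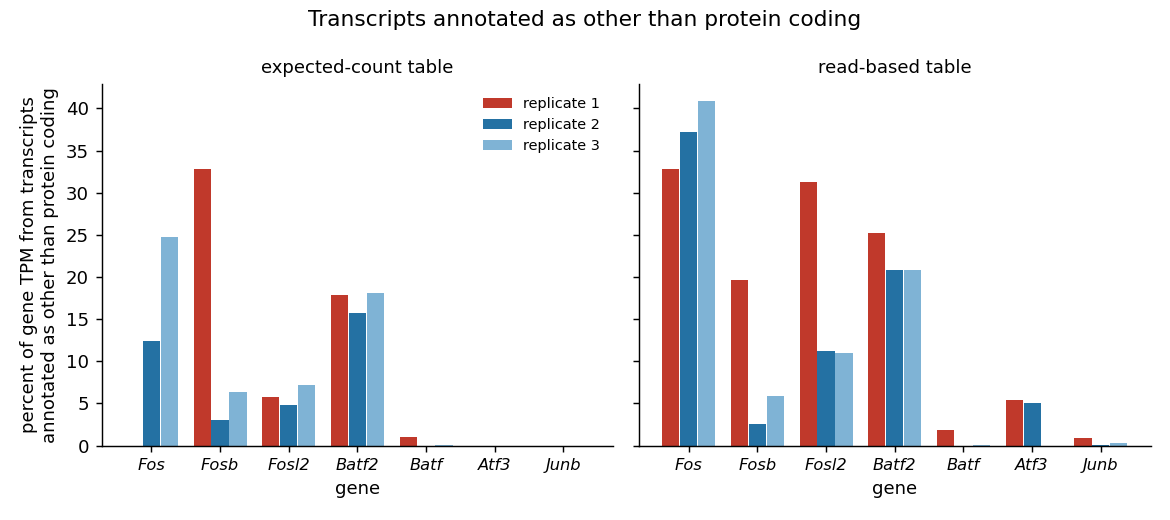
Percent of gene TPM from transcripts annotated as other than protein coding, by library, in the expected-count table (left) and in the second, read-based table (right). Batf2 keeps a similar share in all libraries, whereas Fos runs from 0% to 24.76% on the left and from 32.8% to 40.9% on the right.

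Several members share their locus with other genes, and the strand setting of the counting is not given. The antisense gene Gm11175 lies wholly inside Jund, 919 bases on the minus strand, and had 2.05, 208.12 and 358.02 counts in replicates 1, 2 and 3. Jund and Gm11175 counts were fractional but summed to 1715, 4636 and 5596 within 0.02, so reads at this locus were divided between them. Jund took 99.88%, 95.51% and 93.6% of these sums, and adding Gm11175 to Jund would lower replicate 1 further against the others. Jun and the antisense gene Junos likewise summed to 4500, 7152 and 7800, with Jun at 99.79% or more in each library. Prdx2, a peroxiredoxin gene on the opposite strand with 71.41 to 99.73 TPM, overlaps the 3′ end of Junb by 351 bases, and Arl2, at 5.93 to 7.24 TPM, overlaps Batf2 by 566 bases on the opposite strand. Junb and Batf2 counts were whole numbers in every library, unlike those of Jun and Jund. Reads in those overlaps cannot be assigned without the strand.

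Some bZIP genes are also neighbours. Fos, Jdp2 and Batf follow each other on chromosome 12 with no other protein-coding gene between them, Jdp2 at 121.8 kb from Fos and Batf at 46.79 kb from Jdp2. Batf, at 34.6 TPM, stood above both in each library, while Fos at 5.91 TPM and Jdp2 at 4.58 TPM overlapped. Batf3 and Atf3 lie 61.35 kb apart on chromosome 1 with Fam71a between them, at 1.98 and 98.4 TPM.

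AU-rich elements in the 3′ UTR, whose core is the pentamer ATTTA, mark many short-lived mRNAs. In the annotated 3′ UTR of the leading transcript, Fosl2 had 8 of these pentamers, Fos, Jun and Maff 4 each, Atf3 3, Junb 2, Fosb and Jund 1 each, and Batf and Batf2 0. Per kilobase, Fos had 4.91, Junb 4.12, Maff 3.28 and Jun 3.24, and the median of the members was 2.2. The median over 7839 protein-coding genes detected in every library with a 3′ UTR of at least 200 bases was 1.45. Batf and Batf2 alone had none, but their 3′ UTRs were the shortest of the members, at 335 and 481 bases. Junb had its 2 in 485 bases. How many of all genes had none was not counted. These counts describe sequence and were not tested against levels.

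Genes of the kinase and factor chain that is known to switch on Fos and Jun were mostly present. Of 21 such genes, 19 reached 1 TPM in every library, beside 41.4% of nuclear-encoded protein-coding genes. All 21 passed the filter, of which 17 varied beyond counting error, beside 71.5% over all genes tested. Among the highest were Mapk3 (36.5 ± 2.16 TPM), which encodes ERK1, and Map2k1 (34.1 ± 8.32 TPM) and Map2k2 (31.9 ± 1.16 TPM), the MEK genes. The JNK genes, whose products phosphorylate Jun, were uneven, with Mapk9 at 17.3 ± 5.29 TPM and Mapk8 at 2.7 ± 1.16 TPM. Lowest were Rps6ka5 (0.59 ± 0.173 TPM), which encodes the kinase MSK1, and Map2k6 (0.69 ± 0.252 TPM), a p38 kinase kinase. Srf, which binds the Fos serum response element, was at 5.21 ± 0.523 TPM. All 5 genes of Jun protein turnover reached 1 TPM in every library, from Cops5 (24.8 ± 2.73 TPM), a signalosome subunit, to Fbxw7 (5.12 ± 1.1 TPM), a ubiquitin ligase subunit.

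Textbook AP-1 target genes ranged widely. Of 15, 11 reached 1 TPM in every library, beside 41.4% of nuclear-encoded protein-coding genes, and 9 had a mean of at least 10 TPM. The highest were Vim (585 ± 29.2 TPM), an intermediate filament, Spp1 (484 ± 90.2 TPM), osteopontin, Ccl2 (119 ± 49.5 TPM), a monocyte chemokine, and Hmox1 (100.3 ± 18.9 TPM), haem oxygenase. Mmp3, a matrix metalloproteinase, had 0 counts, and Csf2, a growth factor of granulocytes and macrophages, had 0, 6 and 5 counts. All 13 that passed the filter varied, beside 71.5% of all genes tested. Of these, 6 were highest and 5 lowest in replicate 1, near the shares over all genes tested (39.8% and 42.3%). Tnf, at 90.89, 49.56 and 44.71 TPM, and Ccl2, at 175.52, 84.64 and 95.94 TPM, were highest in replicate 1, as Batf2 was. Spp1, at 425.75, 587.92 and 438.3 TPM, was highest in replicate 2.

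Genes whose profile over the 3 libraries was most like that of a member were found by the Euclidean distance of centred log2 CPM, among 10317 genes that averaged 100 counts or more. For Atf3 these were Chil3 (distance 0.00503), a chitinase-like protein gene, Ehbp1 (0.00864) and Abhd18 (0.0122). For Fos they were Ckap4 (0.0193), Pold2 (0.0232), a DNA polymerase delta subunit, and Lpl (0.0298), lipoprotein lipase. Of the 10317 genes, 108 lay within 0.1 of Atf3 and 23 within 0.1 of Fos, so likeness over 3 libraries does not single out a gene.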

How the data were processed

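Cytosolic, ribosome-depleted RNA of 3 libraries of one condition was analysed. The authors deposited expected counts and TPM per gene and transcript, and the percent of gene TPM per transcript, named so per the file headers and made with mm10 and GENCODE M21 per the notes with the files. A second deposited transcript table has estimated counts and TPM under kallisto's column names. For the aligner, strand setting and versions: not given in the sources used here.

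Expected counts were rounded for edgeR 4.0.16 in R 4.3.3 (filterByExpr, TMM, intercept-only dispersion, log2 CPM with prior count 2). A chi-square test per gene compared libraries. Where a symbol named several genes, the higher entry was taken. Python 3.11.15 was used for the rest. Members and lists were chosen with earlier results of these data known. All members are named, then the 4 highest and 2 lowest of other lists, or further list members chosen after their values were seen. A gene that this rule would name is not reported here. Depth was 31968675 to 57070432 counts per library, and intervals cover counting error only. Alternatives were DESeq2 1.42.0 size factors, other filters, thresholds and prior counts, the second table, and leaving out each library. The chi-square test was tried on simulated counts that held counting error only, apart from some raised genes. Its behaviour under a wider spread was not tested.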

Additional observations from a re-analysis of the deposited data

How the results depend on the processing

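No paired analysis was possible because the series has a single group. The number of members detected (7) ran from 6 to 9 over the alternatives, and the ratio of Jun to Fos family TPM moved by less than 1 SD. That SD, 6.37, includes replicate 1 at 23.3 against 12.1 and 12.5. With a library left out the outcome was fixed in advance, since a mean over 3 libraries cannot then move by 1 SD. The number of members that varied was 9 of 9 tested, and 6 of 10 without replicate 1, where Fos, Jun and Batf2 lost their calls. Leaving out each library in turn gave ratios of 12.3 to 17.9, counts of varying members of 6 to 8 and a median BCV of 0.112 (without replicate 1) to 0.209. Without a filter on low counts the median BCV was 0.219, and the 9 members called then included Fosb and not Jun.

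The median departure of a library over the 9 members was small and unstable in sign. Replicate 1 had 0.07 on the log2 scale, 0.34 on log2(TPM + 1) and -0.0330 to 0.118 when another library was left out. Replicate 2 had 0.02, then -0.0821 on log2(TPM + 1) and -0.118 to -0.0326 with a library left out. Replicate 3 had 0.06, then -0.0443 on log2(TPM + 1) and 0.0326 to 0.0330 with a library left out. On log2(TPM + 1) the median over all genes tested shifted to 0.19 in replicate 1, -0.08 in replicate 2 and -0.12 in replicate 3, and without the filter on low counts that of replicate 1 moved to -0.11, so no direction of the members as a set is drawn. With a library left out, the departures of the remaining pair are exact negatives of each other. The medians were above 0 for every library when none was left out, so a sign had to change each time.

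Of 10 member levels, 10 moved by more than 1 SD when scaled to protein-coding genes alone (Fos from 5.91 to 20.4) and 9 in the second table as deposited (Fos to 2.96). After rescaling of that table, 2 moved. That rescaling, adding Gm11175 to Jund (within 1 SD) and detection on the protein-coding scale (9 members) were chosen after seeing the data. All 30 levels with a library left out stayed within 1 SD. This had to be so, since leaving out 1 of 3 values cannot move a mean by 1 SD, and it says nothing of stability. Depth limits Fosb and Maff most, at 3 and 43 counts in replicate 1.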
